A study of Bos taurus with 15 samples.

Results

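Transcripts of steroid hormone synthesis and of the peptide hormone INSL3 are known from endocrine organs, and their levels were followed here in bovine biceps brachii, a skeletal muscle of the foreleg. The genes are STAR, CYP11A1, CYP17A1, HSD3B1, CYP21A2, CYP11B1 and INSL3, 7 of the 15393 named genes on the array. They were selected on their measured intensities, because some arrays were high for them, so their values by array are a description and carry no test. Each gene had 1 probe, printed as 2 spots, found by the gene name, gene identifier or description that the array annotation gives.

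Total RNA was measured on 15 one-colour Agilent bovine oligonucleotide arrays, 1 animal to an array. Of the cattle, 8 (P25 to P32) received oral prednisolone, a glucocorticoid drug, at a daily dose of 30 mg a head over 35 days, and 7 (C17, C18 and C20 to C24) were controls. The numbers are the animal numbers of the labels. RNA of the prednisolone animals was prepared with TRIzol and the RNeasy MinElute kit, and RNA of the controls with the RNeasy Mini kit, so group and extraction cannot be told apart. The treatment text attached to the controls names Finaplix, Revalor and dexamethasone, another glucocorticoid, yet the characteristics of every one of them read CONTROL. The labels give no age, sex or breed for either group.

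Steroid hormones are made from cholesterol by a chain of enzymes in mitochondria and endoplasmic reticulum. The early steps are shared by adrenal cortex, testis and ovary, whereas the last steps towards cortisol belong to the adrenal cortex. INSL3, a relative of insulin and relaxin, is a product of Leydig cells in the testis and of theca cells in the ovary. Skeletal muscle is not a known site of the whole chain, and prednisolone is known to lower the pituitary drive of adrenal steroid synthesis.

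Levels are log2 intensities after each array was shifted to a common 75th percentile. A level was called high when it lay over 2 log2 units, that is over 4-fold, above the median of the 15 arrays for the same probe. Empty cells, which on the prednisolone arrays were all spots marked as not found, entered this median at the lowest value of their array. Detection flags were at hand for the 8 prednisolone arrays and not for the controls. On the prednisolone arrays 60.9% to 69.1% of probes were well above background, and the dimmest such probe of an array lay between 3.45 and 4.05 log2. The detection limit named below is the level of that dimmest probe. Single probes above it can lack the flag on a spot, so folds given as "at least" hold for this limit alone. All 12 skeletal muscle markers measured were well above background on all 8 of them. The arrays P26, P31 and C20 stood apart from the rest for the genes described here, and every group result that rests on them is also given without them.

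STAR, which carries cholesterol into mitochondria and so opens the chain, was well above background on all 8 prednisolone arrays. Its level on them ran from 4.33 to 8.80 with a median of 5.08, against 4.79 to 8.04 with a median of 5.95 on the control arrays. P26, at 8.80, P31, at 8.75, and C20, at 8.04, were high, and the groups overlapped. In linear terms P26 was 11.3-fold, P31 10.9-fold and C20 6.68-fold above the 15-array median. The next array, C24 at 6.99, lay 1.69 log2 above the median and was not high. The 2 spots of STAR differed by 0.054 log2 on P26, 0.25 on P31 and 0.027 on C20, far less than the gaps between arrays.

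CYP11A1, the mitochondrial enzyme that cleaves the side chain of cholesterol, was well above background with both spots on P26 and P31 alone among the prednisolone arrays. It measured 6.49 on P26 and 6.86 on P31, and 1.36 to 5.40 on the other 6 prednisolone arrays. Among controls it measured 5.91 on C20 and 1.32 to 3.56 on 4 others, and C17 and C18 had no value. The groups overlapped, and the high arrays were those that were high for STAR, joined by P27. The value of 5.40 on P27 came from 1 spot, with a scanner signal of 33.8, while the other spot, with a signal of 2.12, was not found. Against the mean of the other 6 prednisolone arrays, with P27 at its own level and the others at their detection limit, P26 was at least 5.57-fold and P31 at least 7.17-fold higher.

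HSD3B1, which turns pregnenolone into progesterone and is needed for every active steroid hormone, had the widest span of the enzymes. It measured 9.97 on P26 and 7.24 on P31, with both spots well above background there. P25 and P28 had 1.46 and 1.55, and the other 4 prednisolone arrays had no value. Among controls it measured 5.52 on C20 and 1.54 to 2.64 on 4 others, and C18 and C21 had no value. P26, P31 and C20 were again the high arrays, and the groups overlapped. With dim prednisolone arrays at their detection limit, P26 was at least 76.3-fold and P31 at least 11.5-fold higher than the other 6. The scanner gave the 2 spots on P26 signals of 1049 and 976, and those on P31 190 and 175.

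CYP17A1, which adds the hydroxyl group that leads to cortisol and then splits the side chain on the way to androgens, had its highest levels on the same 3 arrays but with small gaps to the rest. Its probe was well above background on all 8 prednisolone arrays, at 7.53 to 9.10 with a median of 7.79, against 7.46 to 8.44 with a median of 7.94 on control arrays. P31 had 9.10, P26 8.43 and C20 8.44, but no array was high. P31 stood 1.25 log2 above the 15-array median, P26 0.58 and C20 0.60. On C22 the 2 spots of CYP17A1 differed by 1.67 log2, more than its whole span over the prednisolone arrays, so small differences of this probe are open to spot error.

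CYP21A2, the hydroxylase that leads from progesterone to deoxycorticosterone and from its hydroxylated form to deoxycortisol, was high on 1 array, P26. It measured 8.64 on P26 and 4.65 to 5.17 on the other 7 prednisolone arrays, against 3.88 to 5.19 with a median of 4.14 on control arrays. P26 was 14.8-fold above the 15-array median, and its 2 spots differed by 0.0071 log2. P31 at 4.68 and C20 at 4.14 were not high, although STAR, CYP11A1 and HSD3B1 were high on both. The RefSeq table also lists the pseudogene CYP21A1P, and the probe may not tell the 2 transcripts apart.

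CYP11B1, the mitochondrial hydroxylase of the final step to cortisol, was high on P26 as well and on no other array. It measured 6.74 on P26 and 1.33 to 3.22 on the other 7 prednisolone arrays, against 1.21 to 2.81 on control arrays. P26 was the sole prednisolone array on which both spots were well above background, and it was at least 8.39-fold higher than the other 7 at their detection limit. The deposited value on P26 came from 1 spot, because the other was not marked as found, but the scanner signals of the 2 spots were 109 and 108. P31 followed at 3.22, which is 1.35 log2 above the 15-array median and below the dimmest probes that were well above background.

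INSL3 showed a different set of arrays. Its level was 5.24 to 15.11 with a median of 5.92 on prednisolone arrays, against 6.17 to 14.32 with a median of 9.54 on control arrays. P31 at 15.11 and C20 at 14.32 had the highest levels, 168-fold and 97.5-fold above the 15-array median. C24 at 12.19 and C22 at 10.80 were also high, and the groups overlapped. Just below the limit were C23, 1.82 log2 above the median, P30 with 1.80 and C21 with 1.70. P26, on which 5 of the other 6 genes were high, had 5.66, which is 2.05 log2 below the median. INSL3 was well above background on all 8 prednisolone arrays, and its 2 spots never differed by more than 0.39 log2 on any of the 14 arrays that had both.

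**Figure D1:**
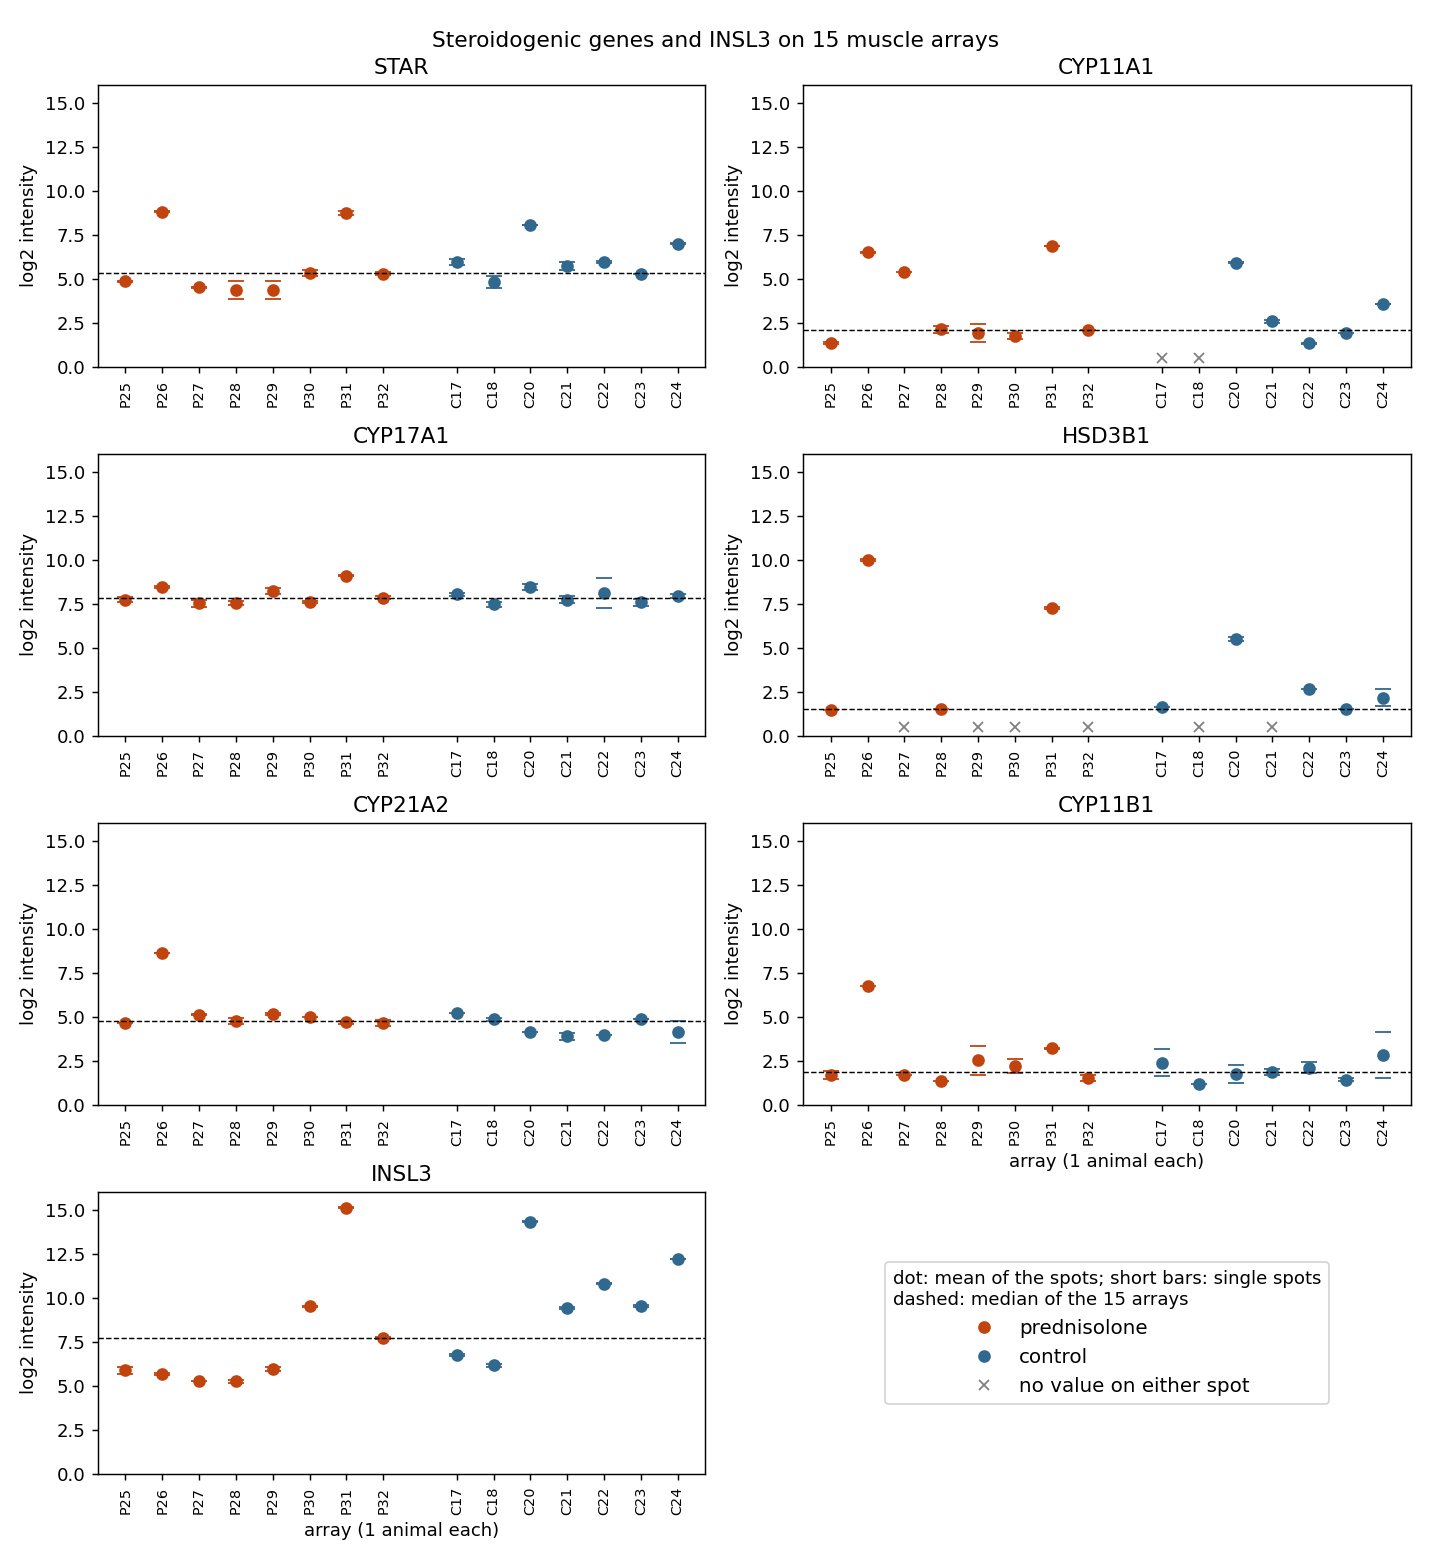
Log2 intensity of each of the 7 genes on every array, with the 8 prednisolone arrays left of the 7 control arrays and each point the mean of the spots of the probe. STAR, CYP11A1 and HSD3B1 are high on P26, P31 and C20, CYP21A2 and CYP11B1 on P26, and INSL3 on P31, C20, C22 and C24.

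Set side by side, P26 had an adrenal-type pattern, with CYP21A2 and CYP11B1 high, and P31 and C20 a gonad-type one, with INSL3 high. STAR, CYP11A1 and HSD3B1 were high in both patterns, and CYP17A1 was high on no array. The gonad-type name rests on INSL3 alone, a peptide hormone and not a product of the steroid chain. P26 was high for 5 of the 7 genes, STAR, CYP11A1, HSD3B1, CYP21A2 and CYP11B1. P31 was high for 4, STAR, CYP11A1, HSD3B1 and INSL3, and C20 for the same 4. The 2 patterns therefore appeared in 2 prednisolone animals, and the gonad-type one in 1 control animal too. P27 was high for CYP11A1 and C22 and C24 for INSL3, each with no other gene of the 7, and the other 9 arrays for none.

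P26 and P31 differed little in STAR and CYP11A1 and widely in HSD3B1, CYP21A2, CYP11B1 and INSL3. STAR differed by 0.053 log2 between them, P26 minus P31, and CYP11A1 by -0.36. HSD3B1 was 6.61-fold higher on P26. CYP21A2 was 15.5-fold higher on P26, and CYP11B1, which was not well above background on P31, at least 9.81-fold higher. INSL3 was 697-fold higher on P31. These gaps compare 2 single animals, and no spread between replicates stands behind them. P26 shared its slide with P25, which was high for no gene of the 7, and P26 minus P25 was 3.94 log2 for STAR, 3.97 for CYP21A2 and -0.22 for INSL3. P31 was the sole prednisolone array of its slide.

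**Figure D2:**
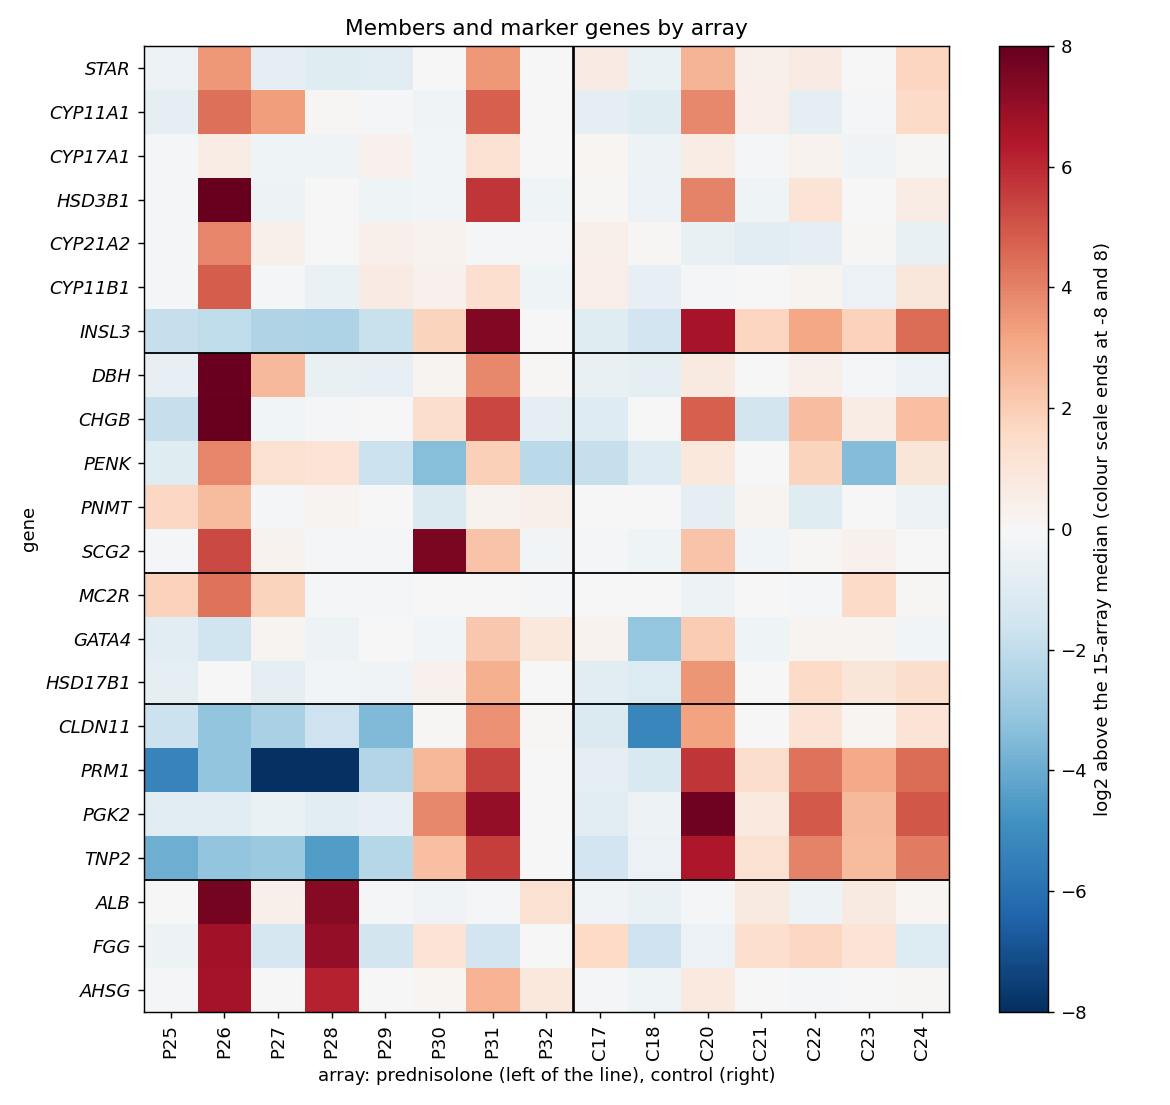
Heat map of log2 intensity minus the 15-array median, with the 7 genes and chosen marker genes in rows, and arrays in columns from P25 to P32 and then C17 to C24. The marker genes shown are only a part of their lists. Those of adrenal medulla are the 5 of 14 that were high on P26. ALB, FGG and AHSG are among the 10 of 16 hepatocyte markers high on P26. CLDN11 is from a list of 15 Sertoli cell markers, of which 2 were high on P31. CYP21A2 and CYP11B1 stand out on P26 and INSL3 on P31 and C20, and STAR, CYP11A1 and HSD3B1 on all 3 of these arrays.

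Levels of the genes moved together to different degrees over the arrays. Correlations are given as a description over 21 pairs of genes measured on the same arrays and scaled together. In these and in the correlations with other genes below, empty cells of the 7 genes stood at the lowest value of their array. That holds for 6 arrays of HSD3B1 and 2 of CYP11A1, so their correlations rest partly on filled values. STAR and INSL3 had a Pearson r of 0.64 over the 15 arrays, 0.94 over the 14 arrays without P26, and 0.85 over the 12 without P26, P31 and C20. Those 12 arrays still held C22 and C24, on which INSL3 was high. CYP21A2 and CYP11B1 had an r of 0.83 over the 15 arrays and -0.045 without P26, so this relation rests on that array. STAR and CYP11A1 had an r of 0.76, and 0.0010 without P26, P31 and C20. STAR and CYP17A1 had an r of 0.82, and 0.41 without these 3 arrays, and HSD3B1 and CYP17A1 had 0.78 and 0.51.

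**Figure D3:**
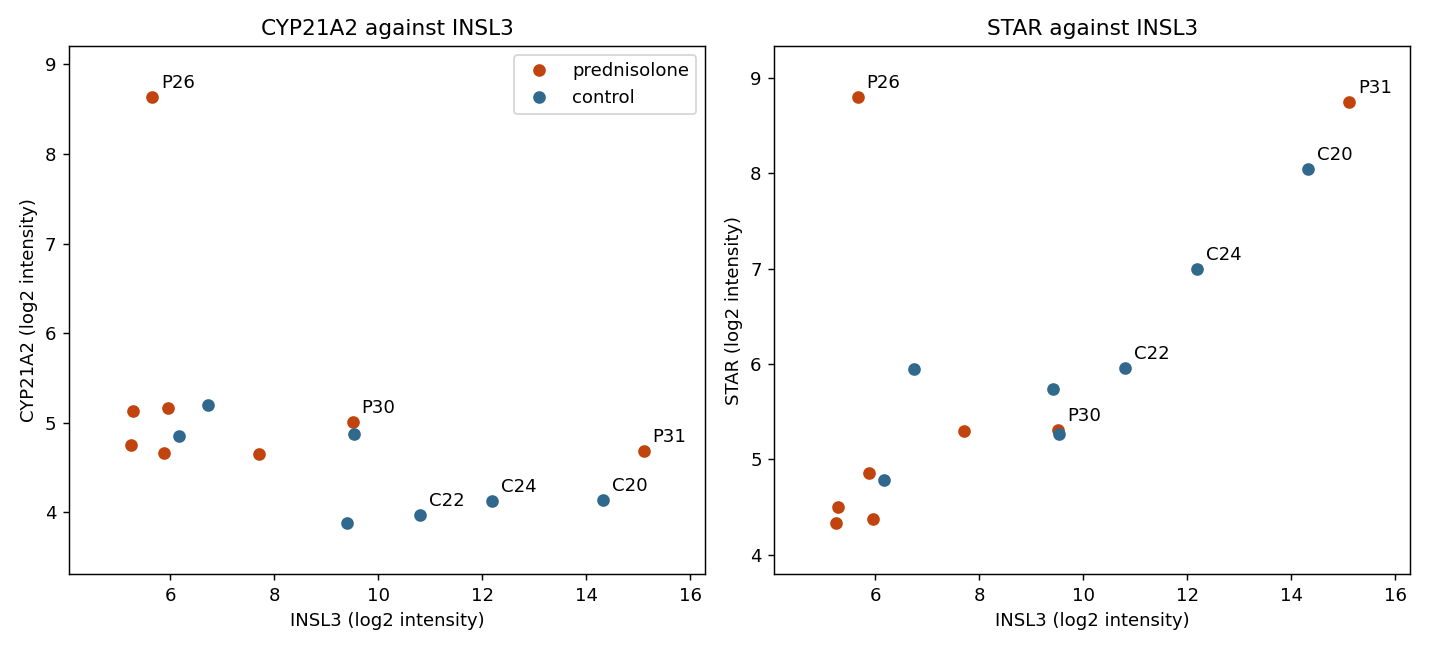
CYP21A2 and STAR levels (vertical axes, log2 intensity) against the INSL3 level (horizontal axes, log2 intensity), 1 point per array, prednisolone in orange and control in blue. P26 stands apart in both panels at an INSL3 level of 5.66, and P31 and C20 have the highest INSL3 levels with STAR high on both, while their CYP21A2 levels are 4.68 on P31 and 4.14 on C20.

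Among all other named genes with a value on every array, those most like INSL3 over the 15 arrays were TEKT2, CCDC83, IZUMO4, C15H11orf16 and ODAD3, with r from 0.98 to 0.99. IZUMO4 had a Spearman rho of 0.99 with INSL3. In all, 242 genes had an r above 0.9 with INSL3, and 1 with HSD3B1, 1 with CYP21A2 and none with STAR, CYP11A1, CYP17A1 or CYP11B1. The gene most like HSD3B1 was CHGB, a protein of secretory granules, with r of 0.93, followed by STAR with 0.90, CYB561, CYP11B1 and PACS1. Without P26 and P31, r with HSD3B1 was 0.082 for CYP11B1 and 0.77 to 0.83 for the others. CHGB also headed the list of STAR, with r of 0.88, before IL20RA, RESP18, SGSM2 and TSSK1. CYP21A2 and CYP11B1 shared TBXT, DCBLD1, CYP2C87 and EFCAB6 among the 5 most like genes of each, and the fifth was CADPS for CYP21A2 and CYP21A2 itself for CYP11B1. For CYP21A2 and TBXT, a developmental transcription factor, r was 0.90, and 0.46 without P26 and C21, the 2 arrays farthest from the median of CYP21A2. Without the 2 farthest arrays, r ran from -0.29 to 0.46 over the 5 genes of CYP21A2 and from -0.20 to 0.42 over those of CYP11B1. All of these genes were highest on P26. TBXT averaged 3.19 log2 over the arrays, and DCBLD1, CYP2C87, EFCAB6 and CADPS averaged 1.68 to 1.94. All of these averages lay below the detection limits of the prednisolone arrays. DRC1 was most like CYP11A1, with r of 0.85, before TMEM175, DMRTB1, CHP1 and DCP1B. The average of DRC1, 2.77 log2, also lay below these limits. FGFR2, a growth factor receptor, was most like CYP17A1, with r of 0.83, before STAR, C23H6orf89, SPAG1 and ATE1. Without C20 and P31, r with CYP17A1 was 0.48 for FGFR2 and at most 0.69 for the others.

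The comparison of prednisolone with control animals asks whether treatment altered these levels in muscle. None of the 7 genes passed an adjusted p of 0.05 in limma, as none of the 20894 probes tested did (0% called), and each gene had an adjusted p of 0.993. At an unadjusted p under 0.05, limma listed 0 of the 7 genes and 3.35% of all probes in the fit over all arrays. In these bulk samples, fewer cells of a type and less RNA per cell cannot be told apart. Nothing in the labels says how the muscle pieces were cut, and the p-values measure the spread between these animals.

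STAR averaged 5.78 ± 1.89 in prednisolone animals and 6.11 ± 1.09 in controls (SD, n = 8 and 7), a limma difference of -0.33 log2 with a 95% interval of -1.95 to 1.29. The difference was -1.004 without P26, P31 and C20, with an unadjusted p of 0.0105 and an adjusted p of 0.991 in limma. CYP11A1 averaged 3.50 ± 2.33 in 8 prednisolone animals and 3.06 ± 1.80 in the 5 controls with a value, a difference of 0.44 (-1.998 to 2.87). Without P31 its difference was -0.042. Both intervals span 0 and hold changes of several fold in either direction.

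CYP17A1, the enzyme with the narrowest spread, averaged 8.00 ± 0.55 in prednisolone animals and 7.90 ± 0.34 in controls, a difference of 0.099 (-0.40 to 0.60). HSD3B1 had a value in 4 prednisolone animals, at 5.05 ± 4.25, and in 5 controls, at 2.70 ± 1.63, with a difference of 2.35 (-1.72 to 6.42). Leaving out P26 brought the HSD3B1 difference to 0.71. These averages leave out the prednisolone arrays on which neither spot of HSD3B1 was found. With all arrays and empty cells at the lowest value of their array, the HSD3B1 difference was 0.88. Without P26, P31 and C20, HSD3B1 had values on fewer than 3 prednisolone arrays and was not tested.

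CYP21A2 averaged 5.33 ± 1.35 in prednisolone animals and 4.43 ± 0.52 in controls, a difference of 0.90 (-0.19 to 1.99). All 8 prednisolone arrays lay above the control median for CYP21A2, although 3 control arrays, C17, C18 and C23, lay among them. The share of all probes with this order was not counted. Its unadjusted p was 0.0978 in limma. Exact two-sided permutation tests of the means were run on all 7 genes and not adjusted. These permutation tests gave p = 0.0494 for CYP21A2 and 0.176 to 0.764 for the other 6. P26 had been among the values on which CYP21A2 was selected. The tests were run neither over all probes nor without P26, so this p-value is no evidence of a group difference. Without P26 the difference was 0.43. CYP11B1 averaged 2.62 ± 1.78 in prednisolone animals and 1.94 ± 0.55 in controls, a difference of 0.68 (-0.72 to 2.08), which was 0.091 without P26.

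INSL3 averaged 7.54 ± 3.39 in prednisolone animals and 9.88 ± 2.88 in controls, a difference of -2.34 (-5.58 to 0.91). Of the 8 prednisolone arrays, 1 lay above the control median of INSL3, namely P31. The difference was -3.42 without P31 and -1.60 without C20, and the adjusted p of limma stayed above 0.05 in both cases. The unadjusted p of limma for INSL3 was 0.146 over all arrays, 0.0099 without P31 and 0.303 without C20. Across the 7 genes, 5 differences were positive and 2, those of STAR and INSL3, negative, against 7868 positive and 7240 negative over all named genes tested.

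**Figure D4:**
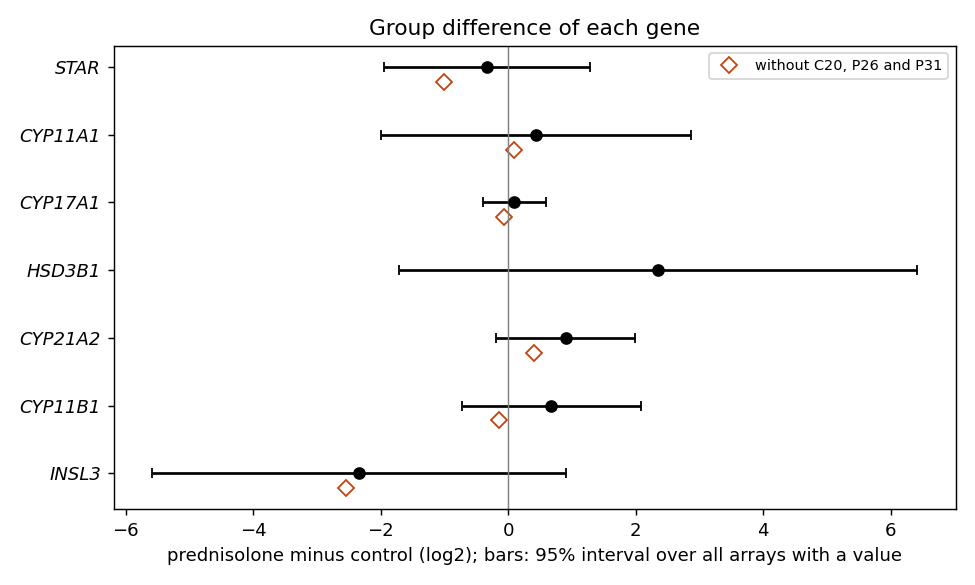
Prednisolone minus control difference of each of the 7 genes in log2 units, with 95% intervals from limma (points and bars, all arrays with a value) and the difference without C20, P26 and P31 (open diamonds). Every interval crosses 0, the diamond of STAR lies further from 0 than its point, and HSD3B1 has no diamond.

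The rest of the pathway was read from the same fit. Of 37 other genes of steroid synthesis and metabolism, 29 were on the array and tested. Their differences were positive for 16 and negative for 13, with a median of 0.021 log2, and none passed the adjusted threshold. Over all 15108 named genes tested, 7868 differences were positive and 7240 negative, with a median of 0.0098. HSD17B1, which makes estradiol from estrone and is an enzyme of the ovary and placenta, was high on C20 and P31. It measured 7.95 on P31 and 4.37 to 5.43 on the other 7 prednisolone arrays, against 8.66 on C20 and 4.02 to 6.67 on the other 6 control arrays. LIPE, the lipase that frees cholesterol and fatty acids from stored esters, was high on C20 alone, at 10.07, and its next levels were 9.06 on P32, 9.05 on P31 and 9.01 on C22. STARD3 and HSD17B10, which have the brightest probes of the list, were high on no array. On the prednisolone arrays, 20 of the 29 genes were well above background on all 8 and 6 on none: SCARB1, SOAT1, HSD17B2, AKR1C3, AKR1D1 and SULT1E1.

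Regulators and receptors of the pathway gave 16 positive and 7 negative differences among 23, with a median of 0.16 log2 and none past the adjusted threshold. The receptors for the pituitary hormones that drive adrenal and gonad, MC2R and LHCGR, and NR5A1, the nuclear receptor that switches on steroid enzyme genes, were well above background on none of the 8 prednisolone arrays. MC2R had a level of 5.70 on P26 that was not well above background with both spots. GATA4, a transcription factor of gonad somatic cells, was high on P31 at 6.28 and on C20 at 6.19. FSHR was high on P31, at 3.97.

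Of 22 genes of cholesterol synthesis, 17 differences were positive and 5 negative, with a median of 0.058 log2, and none passed the adjusted threshold. Over all named genes tested, 7868 were positive and 7240 negative, and no test was made of the direction counts of any list. CYP51A1, the demethylase of lanosterol, was high on P30 and P31 and on C20, C22 and C24, which include all 4 arrays that were high for INSL3. It measured 8.39 on P31, 5.02 on P30 and at most 3.07 on the other prednisolone arrays, against 9.05 on C20, 6.26 on C22 and 6.70 on C24. The insulin and relaxin family held 4 other genes on the array, and all 3 tested had positive differences with none past the adjusted threshold. IGF1 and IGF2, growth factors that muscle itself makes, had the brightest probes of these, and neither was high on any array.

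Marker lists of other cells moved with the 7 genes on single arrays, and their part in the results was not tested. The share of all named genes that were high on each array was not computed. P26 and C20 had the most spots with a value, 87.2% and 87.4%. Small counts below therefore cannot be read as a result about a list. Of 14 adrenal medulla markers, 5 were high on P26, 4 on P31, 2 on C20 and at most 1 on any other array. The mean level of this list ran from 4.95 to 7.53 on prednisolone arrays and from 4.85 to 5.96 on control arrays. CHGB, stored with catecholamines in secretory granules, measured 11.22 on P26, 8.45 on P31 and 7.90 on C20. DBH, which makes noradrenaline, measured 9.76 on P26, 5.74 on P31 and 4.49 on P27. PNMT, which makes adrenaline, had 13.33 on P26 and 12.47 on P25. CHGA, SCG3, SLC18A1 and CARTPT were well above background on none of the 8 prednisolone arrays. Of 10 adrenal cortex markers outside the 7 genes, 1 was high on P26, namely MC2R, and 1 on P32, and MC2R, NR0B1 and SCARB1 were well above background on none.

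Liver transcripts were high on P26 too. Of 16 hepatocyte markers, 10 were high on P26, 9 on P28 and 3 on P31, with a mean level of the list between 4.40 and 8.14 on prednisolone arrays and between 4.11 and 4.90 on control arrays. Albumin (ALB) measured 9.24 on P26 and 8.84 on P28. P28 was high for none of the 7 genes, so high liver transcripts also occurred without the adrenal-type enzymes. The same array, P26, had 0 of 30 testis germ cell markers high.

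Germ cell transcripts were high on the arrays with high INSL3. Of the 30 markers, 24 were high on P31, 15 on P30, 24 on C20, 22 on C24, 21 on C22, 11 on C23 and 2 on C21, and none on the other 8 arrays. The mean level of the list ran from 3.49 to 9.56 on prednisolone arrays and from 4.35 to 10.08 on control arrays. PRM1, a protamine that packs sperm DNA, measured 2.25 to 17.48 on prednisolone arrays and 10.89 to 17.84 on control arrays, with P31 and C20 the highest of their groups. PRM2, SYCP1, CAPZA3 and SPATA19 were well above background on none of the prednisolone arrays. Of 11 Leydig cell markers outside the 7 genes, 1 was high on P31 and on C20, namely GATA4, while LHCGR, NR5A1 and PRLR were well above background on no prednisolone array. Of 15 Sertoli cell markers, 2 were high on P31 and 1 on C20, among them CLDN11, a protein of the blood-testis barrier, at 9.94 on P31 and 9.52 on C20. Of 19 ovary markers, 2 were high on P31 and 1 on each of P25, P27, P28 and C20, and FOXL2, BMP15, ZP4, PTGFR, ZAR1 and PGR were well above background on no prednisolone array.

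Arrays that were high for germ cell markers were not all high for genes of steroid synthesis. C24, C22 and P30 had 22, 21 and 15 germ cell markers high but neither STAR, CYP11A1 nor HSD3B1, and their STAR levels were 6.99, 5.96 and 5.30. The thymocyte list, with 7 of 10 markers high on P30, 5 on P32, 7 on C17 and 3 on C20, was most often high on 3 arrays that were high for none of the 7 genes. Of 8 kidney markers 1 was high on P31 and 1 on C20, and of 7 adipocyte markers none was high on any array. The skeletal muscle list had mean levels from 15.76 to 16.44 on prednisolone arrays and from 15.79 to 16.46 on control arrays, with 15.97 on P26, 16.31 on P31 and 16.10 on C20. Of its 12 genes, 1, TNNT3, a troponin of fast muscle, was high on P25 and P30.

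**Figure D5:**
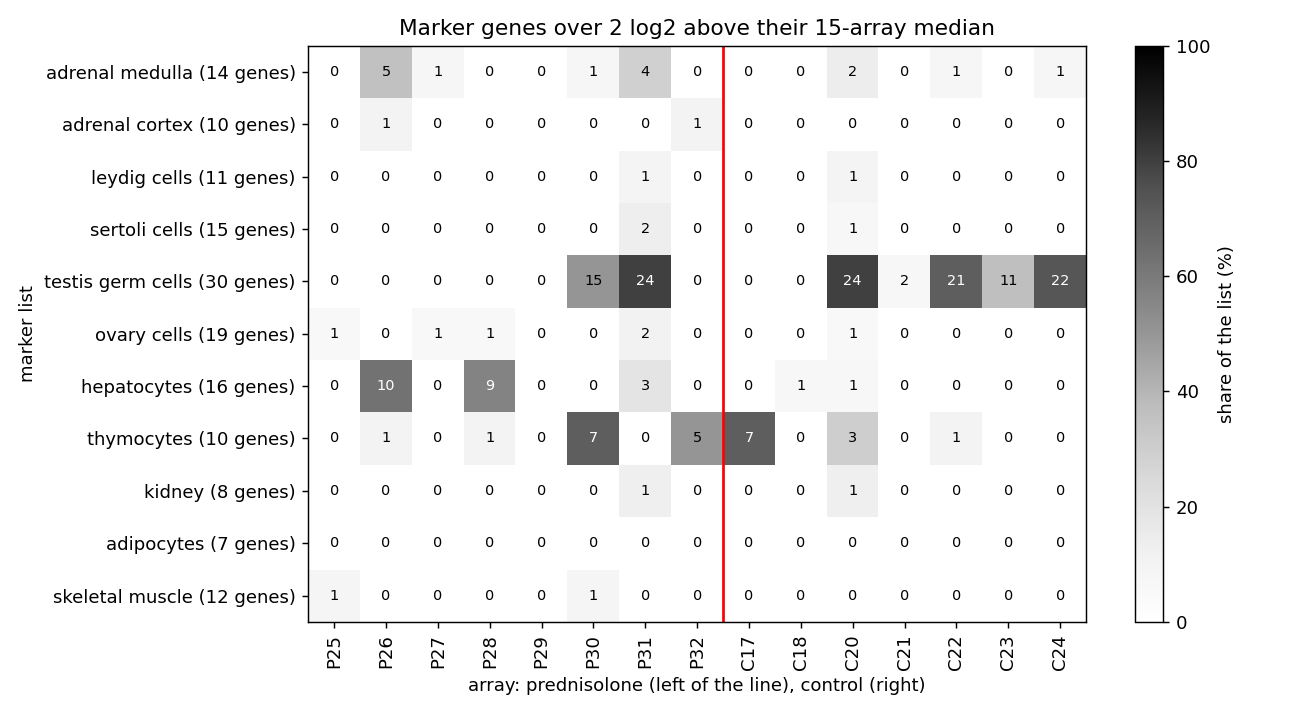
Number of genes of each marker list that were high on each array, prednisolone arrays left of control arrays, with shading for the share of the list. Adrenal medulla and hepatocyte markers are most numerous on P26, and testis germ cell markers on P31 and C20.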

How the data were processed

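RNA of 15 biceps brachii samples, 8 prednisolone and 7 control, was measured on one-colour arrays. Intensity values of single spots on a linear scale make up the deposited table, per the file headers. R 2.11.1 was used, per the submitters' processing notes, and the sources used here do not name the normalization method. For the prednisolone arrays the deposited scanner output, from Feature Extraction 9.5.1.1 per the file headers, also gave processed intensity and detection flags. Its 42990 spots match the table, and the empty cells are spots not found.

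Values were taken as log2, arrays were shifted to a common 75th percentile, taken over 14324 probes without empty cells, and spots of 1 probe were averaged. Names came from the array annotation and the RefSeq table of ARS-UCD2.0, and other genes are represented by their brightest probe by mean over arrays. Groups were compared with limma 3.58.1 (lmFit, eBayes) in R 4.3.3, and p-values were adjusted after Benjamini and Hochberg over the 20894 probes that had at least 3 values per group. The script was tested on simulated data. A bound ("at least") takes, per dim array, the higher of the lowest signal well above background and the probe's own level, and averages these. The 5th percentile of probes well above background was higher, 4.19 on P31 to 4.83 log2 on P30. A limit set there would give smaller folds. Spots of 1 probe differed by a median of 0.10 log2 over all arrays, and the number of arrays limits the precision.

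The 7 genes and the gene lists were chosen with earlier results of these data known. List genes named in the text were drawn from the 2 brightest of a list and up to 6 that were high on an array where 1 of the 7 was high, and not all of these are named. Of other genes it names the 5 with the highest correlation to each of the 7. List members named for not being detected, and TNNT3, were chosen after their values were seen. Alternatives varied scaling, filters, empty cells, spots, weights and arrays left out. The slides of the controls are not known here, so no fit with slide was possible. Probe and promoter sequences were not used here.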

Additional observations from a re-analysis of the deposited data

Results flagged for a closer look

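In 4 sets of values, the gap of the highest array to the next, divided by the range of its group, was above the 95% critical value of Dixon's ratio. Chance flags about 1 in 20 groups where genes are not chosen by their values, but these genes were selected because some arrays were high, so the ratios are a description and no test. CYP21A2 on P26, at 8.64, had a ratio of 0.870 among the 8 prednisolone arrays, with a gap of 3.47 log2 to the next array. INSL3 on P31, at 15.11, had 0.568 among the prednisolone arrays, with a gap of 5.60 log2. CYP11B1 on P26, at 6.74, had 0.650 on the deposited values, but the other 7 prednisolone arrays were not well above background, so this ratio is not a measured one and the gap to the next array, P31, is at least 3.29 log2. HSD3B1 on C20, at 5.52, had 0.724 among the 5 control arrays with a value, for which no detection flags were used here.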

How the results depend on the processing

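No member passed an adjusted p of 0.05 in limma under any alternative run. The unadjusted p of limma for INSL3 was 0.0099 without P31 and 0.0186 without C20 and P31. It was 0.034 without C20, P26 and P31, and 0.016 under array weights. For STAR it was 0.0105 without C20, P26 and P31. These are repeated looks at the same arrays and genes selected on their values, so they are a description. No paired analysis was possible because the groups share no animal numbers. The number of probes called was 0 in the fit as reported and 1, PZP, without C20 and P31, and it ran from 0 to 1 when single arrays were left out (PZP without P31, ZNF696 without C23). Leaving out C20, P26 and P31 together, an alternative chosen after seeing the data, turned the difference to -0.066 for CYP17A1 and -0.14 for CYP11B1. It left HSD3B1 with fewer than 3 prednisolone values and so untested. The other differences in that fit were -1.004 for STAR, 0.092 for CYP11A1, 0.41 for CYP21A2 and -2.54 for INSL3. With single arrays left out, the differences ran from -0.76 to -0.0051 for STAR, -0.042 to 1.15 for CYP11A1, -0.059 to 0.19 for CYP17A1, 0.71 to 3.55 for HSD3B1, 0.43 to 1.03 for CYP21A2, 0.091 to 0.87 for CYP11B1 and -3.42 to -1.60 for INSL3. The negative values of CYP11A1 and CYP17A1 came without P31, and the cause was not tested. Filling empty cells with the lowest value of the array gave 0.98 for CYP11A1 and 0.88 for HSD3B1. Under array weights CYP11A1 was 1.04. All 7 differences kept their direction under the other scalings, filters and spot choices. The filters dropped CYP11A1, HSD3B1 and, for detection on all 8 prednisolone arrays, CYP11B1. An average over probes was not run, since each gene had 1 probe.

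The number of the 7 genes that were high was 4 to 5 on P26, 4 to 6 on P31 and 3 to 4 on C20 under other scalings, spots and limits. With normexp, an offset of 50, which compresses dim signals, and quantile scaling, the range over prednisolone arrays shrank to 1.80 for STAR, 0.88 for CYP11A1, 0.92 for CYP17A1, 3.03 for HSD3B1, 1.64 for CYP21A2 and 0.98 for CYP11B1, against 4.47, 5.49, 1.57, 8.51, 3.99 and 5.42 as reported. With the first spot of each probe the CYP11B1 range was 2.02, because its value on P26 is in the second spot. Signal over background limits CYP11A1, HSD3B1 and CYP11B1, whose levels on most prednisolone arrays are bounds, and the controls have no detection flags here.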
